A study of Mus musculus with 22 samples.

Results

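The genes described here are 10 enzymes of glycolysis, chosen by symbol: Hk2, Gpi1, Pfkp, Aldoa, Tpi1, Gapdh, Pgk1, Pgam1, Eno1 and Ldha. All 10 were listed among the 52526 gene symbols measured in the mammary tissue of 22 mice, and all 10 passed the filter on low values, which kept 15138 genes. The mice were female, of the inbred C57BL/6J strain, and 7 to 8 weeks old. For 2 weeks each cage had either a running wheel or, for controls, only the hub on which a wheel sits. Mammary fat pad number 4 on the left then received EO771 cells, a mammary cancer line of the same strain carrying firefly luciferase, and this tissue was taken 24 hours later. All mice were also given liposomes intravenously, 24 hours before and again at engraftment, which held either PBS or clodronate, an agent that kills phagocytes once they swallow the liposomes. The labels list 1 catalogue number for both liposome products, so the groups follow the words of the labels. The PBS groups held 6 control mice and 6 wheel-running mice (runners), and the clodronate groups 5 and 5. Whole tissue was lysed, so each value sums over host cells and engrafted cancer cells, and the labels give no running distance for a mouse. In such bulk tissue, fewer cells of a type and less RNA per cell cannot be told apart.

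Glycolysis splits glucose into pyruvate in the cytosol and yields ATP without oxygen, and lactate dehydrogenase turns the pyruvate into lactate. Hexokinase, phosphofructokinase and pyruvate kinase catalyse its irreversible steps, while most of the other enzymes work close to equilibrium. Many of these genes are targets of the hypoxia-inducible factor HIF-1, and several have a separate isozyme in skeletal muscle. Fat cells, epithelium, immune cells, muscle fibres and cancer cells of a mammary fat pad all run the pathway.

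The QuantSeq libraries cover only the 3′ ends of transcripts, so that the level of a gene does not grow with the length of its transcript. Values are in CPM, the reads of a gene scaled to a common library total, and every value below 1 had been raised to a floor of 1 CPM. The libraries held 13256467 to 20484578 reads, so that the floor hides up to 13 to 20 reads of a gene. The defining markers of a mammary fat pad were present: 10 of 10 adipocyte markers and 10 of 10 epithelial markers were above the floor in all 22 mice. Some libraries stood apart in their makeup. The skeletal muscle score, the mean log2(CPM + 1) of 12 muscle markers, was 10.8 in control mouse 2 and 9.71 in runner 2 of the clodronate groups, against 1.83 to 7.85 in the other 20 mice. The same score over 12 lymphocyte markers was 4.19 in control mouse 2 and 4.48 in runner 3 of the PBS groups, and 4.97 to 5.58 in runners 3, 4 and 5 of the clodronate groups, while the other 17 mice lay between 1.00 and 1.32. Results that rest on these mice are given below with and without them where such a fit was run.

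The genes lie on 5 autosomes and the X chromosome of GRCm38. By the GENCODE M21 annotation Gpi1 (34201330 to 34230336), Ldha (46841475 to 46855627) and Aldoa (126795234 to 126800751) are on chromosome 7, and Hk2 (82725025 to 82774454), Tpi1 (124810586 to 124814296) and Gapdh (125161715 to 125166467) on chromosome 6. Pfkp is on chromosome 13 (6579768 to 6648777), Eno1 on chromosome 4 (150236721 to 150248879), Pgam1 on chromosome 19 (41911923 to 41918660) and Pgk1 on chromosome X (106187100 to 106203699).

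All 10 genes had at least 1 entry in the RefSeq promoter table (GRCm38.p6), with 15 starts in all. The 250 bases before each start were searched on both strands for ACGTG, the core shared by most elements that HIF-1 binds. It was present at 6 of the 15 starts (40%), which belong to 5 of the 10 genes. The Aldoa windows among them overlap and hold the same site, so that this site is counted more than once. A further start of Aldoa and a further start of Ldha had no match. Of all 32851 promoter windows of that length listed there, 16.6% hold it, as do 24.0% of the 10991 tested genes with an entry when any of their starts counts. The windows that hold it are printed here, 1 for each of those 5 genes, as the regulatory sequence of the members that share these letters. Each is read 5′ to 3′ on the strand of the gene, with the core in capitals as ACGTG or, where it lies on the opposite strand, CACGT.

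Hk2, chr6:82774455-82774704, minus strand: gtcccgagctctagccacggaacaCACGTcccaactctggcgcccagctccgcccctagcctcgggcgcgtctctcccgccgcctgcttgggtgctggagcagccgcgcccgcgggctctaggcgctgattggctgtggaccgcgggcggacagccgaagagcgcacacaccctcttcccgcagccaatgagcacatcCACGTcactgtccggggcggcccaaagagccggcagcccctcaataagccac
Aldoa, chr7:126799255-126799504, minus strand: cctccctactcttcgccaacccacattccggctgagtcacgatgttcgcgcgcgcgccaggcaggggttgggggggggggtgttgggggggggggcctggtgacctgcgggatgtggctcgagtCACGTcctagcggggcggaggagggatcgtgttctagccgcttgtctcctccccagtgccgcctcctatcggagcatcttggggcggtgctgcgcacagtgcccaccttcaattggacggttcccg
Pgk1, chrX:106186850-106187099, plus strand: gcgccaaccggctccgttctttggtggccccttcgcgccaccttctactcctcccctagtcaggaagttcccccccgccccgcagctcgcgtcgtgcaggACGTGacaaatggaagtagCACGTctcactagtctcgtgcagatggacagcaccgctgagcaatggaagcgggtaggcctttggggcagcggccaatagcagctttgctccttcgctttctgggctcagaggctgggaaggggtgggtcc
Pgam1, chr19:41911621-41911870, plus strand: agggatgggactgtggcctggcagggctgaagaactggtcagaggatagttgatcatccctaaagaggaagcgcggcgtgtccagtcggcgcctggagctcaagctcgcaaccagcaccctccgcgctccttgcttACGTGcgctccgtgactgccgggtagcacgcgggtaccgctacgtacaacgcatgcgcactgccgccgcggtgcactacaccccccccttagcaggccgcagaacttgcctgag
Ldha, chr7:46845554-46845803, plus strand: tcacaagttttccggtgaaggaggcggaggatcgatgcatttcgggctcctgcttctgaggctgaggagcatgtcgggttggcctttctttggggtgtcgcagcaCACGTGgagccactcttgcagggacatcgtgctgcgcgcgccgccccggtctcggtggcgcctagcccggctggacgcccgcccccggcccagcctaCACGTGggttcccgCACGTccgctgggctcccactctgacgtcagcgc

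The Ldha window held the core 5 times, 2 as ACGTG and 3 as CACGT, and copies overlap where they form the palindrome CACGTG. Hk2 and Pgk1 held it 2 times each, and Aldoa and Pgam1 1 time each. A match describes the letters of a window and does not show that a factor was bound in these mice. No match to these letters was found in the windows of Gpi1, Pfkp, Tpi1, Gapdh and Eno1.

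The most abundant of the 10 transcripts was Aldoa, which encodes aldolase A, the enzyme that cuts the hexose into triose phosphates. Its median over the 22 mice was 782 CPM (427 to 3191). Ldha, the A subunit of lactate dehydrogenase, followed with a median of 184 CPM (107 to 401), and every mouse had more Aldoa than Ldha. A group of 3 genes came next and was not separated within itself. These were Hk2, the insulin-responsive hexokinase that traps glucose in the cell, with 98.1 CPM (48.3 to 156), Tpi1, triose phosphate isomerase, with 78.4 CPM (43.5 to 218), and Gpi1, glucose phosphate isomerase, with 76.4 CPM (34.8 to 131). Ldha exceeded Hk2 in 22 of 22 mice, whereas Hk2 exceeded Tpi1 in 15 and Tpi1 exceeded Gpi1 in 12.

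Pfkp, the platelet-type phosphofructokinase, lay below Gpi1 in every mouse, with a median of 26.3 CPM (15.1 to 52.7). Gapdh, glyceraldehyde phosphate dehydrogenase, had a median of 20.6 CPM (8.14 to 67.8), and Eno1, alpha-enolase, one of 15.5 CPM (5.75 to 39.8). The order of these 3 was not firm, since Pfkp exceeded Gapdh in 14 of 22 mice and Gapdh exceeded Eno1 in 14. At the bottom, Pgk1, phosphoglycerate kinase, had a median of 2.21 CPM and sat at the floor in 6 mice. Pgam1, the brain-type phosphoglycerate mutase, had a median of 1.19 CPM and sat at the floor in 8 mice. Eno1 exceeded Pgk1 in every mouse, but Pgk1 exceeded Pgam1 in only 14. The sum of the 10 genes had a group median of 1548 CPM in control mice and 1395 CPM in runners with PBS liposomes, and of 1132 and 1083 CPM with clodronate liposomes.

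**Figure D1:**
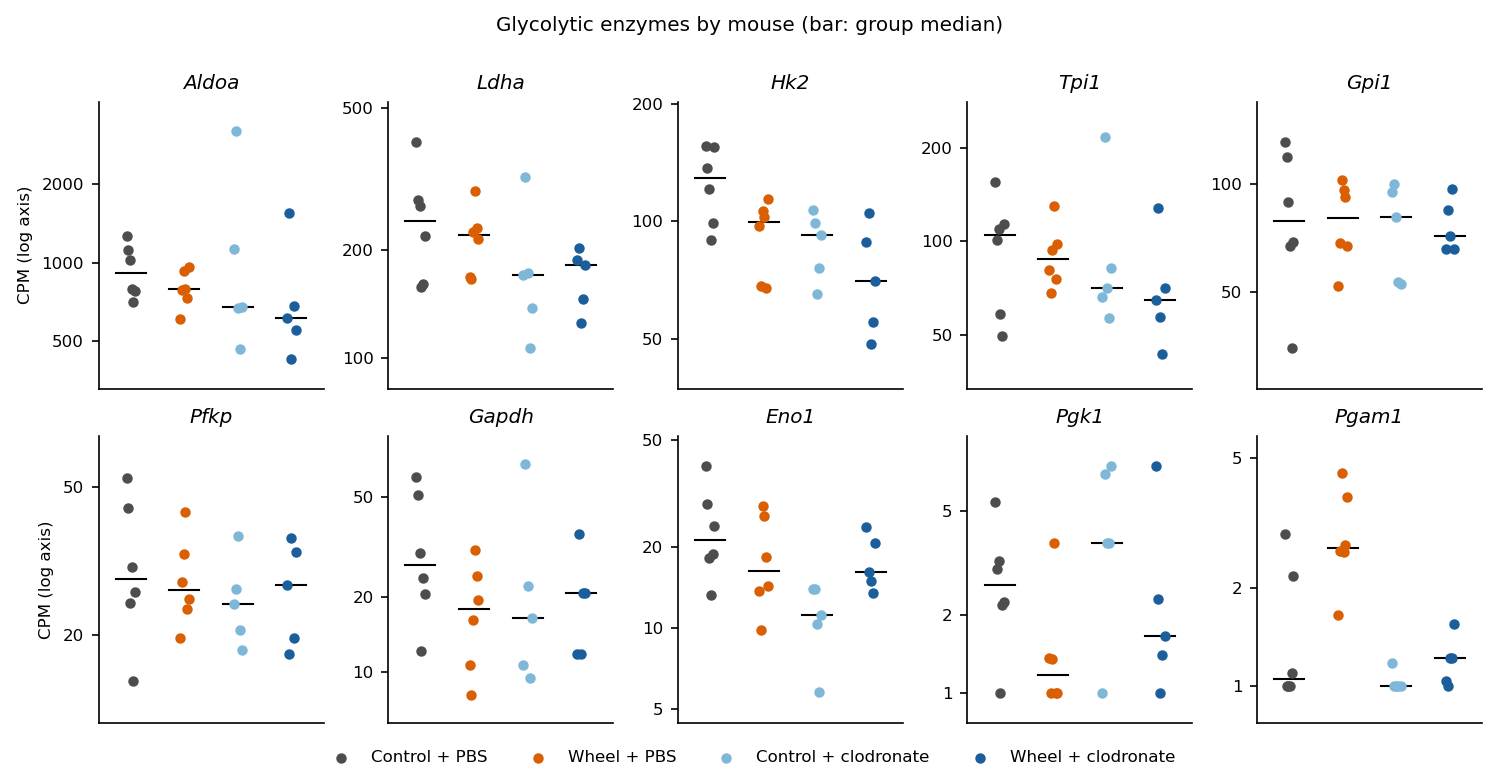
CPM of each of the 10 genes (log axis, its own range in each panel) in each mouse, coloured by group, with a bar at the group median. Aldoa and Tpi1 each have 1 high mouse among the control mice with clodronate liposomes (3191 and 218 CPM), and Pgam1 reaches 1.65 CPM or more in all 6 runners and 2 control mice with PBS liposomes and in no mouse with clodronate liposomes.

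For at least 2 of the 10 genes the level depends on how reads of near-identical copies were treated. The last 400 bases of the Gapdh transcript matched 66 other annotated genes at 97% identity or more over at least 100 bases, of which 64 are annotated as pseudogenes, and the matches covered 100% of that stretch. Of these copies, 12 were above the floor in at least 1 mouse. Their summed levels reached 12.6 CPM, with values at the floor counted as 0, so the sum leaves out reads below the floor. The end of Eno1 matched Eno1b over 397 bases at 99.5% identity, and Eno1b itself was listed at a median of 10.1 CPM (4.73 to 26.4). Multimapping reads made up 16.6% to 19.9% of each library, and the levels of Gapdh and Eno1 are uncertain because reads of their copies may be among them. The last 400 bases of the other 8 genes matched no annotated gene of another symbol at that identity and length. Entries of the same symbol were left out of this search, and Aldoa was listed in 2 rows, so its level may depend on them too. Other transcript ends were not searched. The retrogene Aldoart1 matched Aldoa at 90.8% over 402 bases and had a median of 10.2 CPM.

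The experiment asked how running bears on gene expression in tissue that has just received cancer cells. With PBS liposomes, 9 of the 10 genes had a lower mean in runners than in control mice, and the median of the 10 log2 changes was -0.18, beside -0.085 over all genes tested, of which 63.8% were lower. The count of lower genes depends on the scaling, being 6 of 10 when mice were rescaled to the same upper quartile and 7 of 10 when they were rescaled to the reads assigned to genes. None of the differences held up against the spread between mice after adjustment. With limma and Benjamini-Hochberg adjustment, 0 of the 10 passed an adjusted p of 0.05, and neither did any of the 15138 genes (0%), while 744 genes (4.91%) had an unadjusted p under 0.05. At that unadjusted p, 1 of the 10 was lower, as were 4.12% of all genes, and 1 was higher, as were 0.799% of all genes. Groups overlapped for all 10 genes, and did not for 0.264% of all genes. In the same comparison 10 of 10 dividing-cell markers had a lower mean in runners, with a median log2 change of -0.81, and 12 of 12 muscle markers did, with a median of -1.84, though limma called 0 of them and 0 had an unadjusted p under 0.05. The part of dividing cells in the result was not tested. Changes are given as log2(CPM + 1) with limma's standard error (SE), a scale that understates the change of genes near the floor.

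At the entry step of the pathway Hk2 had a lower mean in runners. Hk1, which also catalyses this step, had a median of 25.2 CPM over the 22 mice, and its change is not reported here. Hk2 ran from 89.6 to 156 CPM in control mice (median 129) and from 67.5 to 114 CPM in runners (median 99.8). Its means were 126 ± 28.2 and 92.6 ± 19.9 CPM (SD, n = 6 each). The log2 change was -0.44 (SE 0.20, adjusted p = 0.987), and it kept its sign under every alternative run, between -0.54 and -0.34. The next enzymes differed less. Gpi1 ran from 34.8 to 131 CPM (median 79.1) in control mice and from 51.9 to 103 CPM (median 80.4) in runners, a log2 change of -0.0073 (SE 0.25, adjusted p = 1). Pfkp ran from 15.1 to 52.7 CPM (median 28.2) and from 19.6 to 42.9 CPM (median 26.3), a log2 change of -0.10 (SE 0.26, adjusted p = 0.997). Upper-quartile scaling turned the changes of Gpi1, Pfkp and Tpi1 to values at or above 0, so no direction can be given for these 3 genes.

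Aldolase and the triose enzymes had low precision. Aldoa ran from 704 to 1261 CPM in control mice (median 911) and from 610 to 962 CPM in runners (median 792), a log2 change of -0.22 (SE 0.34, adjusted p = 0.991). Tpi1 ran from 49.5 to 156 CPM and from 68.2 to 130 CPM, a log2 change of -0.029 (SE 0.31, adjusted p = 0.998). Gapdh, which oxidises the triose and makes NADH, had the lowest of the 10 changes. It ran from 12.2 to 60.6 CPM in control mice (median 26.9) and from 8.14 to 30.7 CPM in runners (median 17.8), a log2 change of -0.76 (SE 0.43, adjusted p = 0.987). The high end of the control range was made by mice 1 and 2, with 60.6 and 51.2 CPM, and the other 4 control mice lay within the range of the runners. The muscle score ran from 2.10 to 7.85 in these control mice and from 1.83 to 4.48 in the runners, and with that score as a covariate the change of Gapdh was -0.57 and that of Aldoa was -0.021.

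In the payoff steps the changes went both ways. Pgk1 ran from the floor to 5.40 CPM in control mice and from the floor to 3.77 CPM in runners, with 1 and 3 mice at the floor, and its log2 change was -0.56 (SE 0.37, adjusted p = 0.987). Pgam1 was the exception to the lower means. Runners had 1.65 to 4.51 CPM of Pgam1 (median 2.65), which is 23 to 67 reads, and control mice had from the floor to 2.92 CPM (median 1.05). No runner was at the floor and 3 of 6 control mice were. Its log2 change was 0.67 (SE 0.19, adjusted p = 0.961), and it ranked 21 by p among the 15138 genes. Values at the floor are equal by definition, so the SE and the rank leave out the spread below it. Over the alternatives its change lay between 0.29 and 1.03, and its lowest adjusted p was 0.699.

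Eno1 ran from 13.3 to 39.8 CPM in control mice (median 21.3) and from 9.77 to 28.2 CPM in runners (median 16.3), a log2 change of -0.36 (SE 0.28, adjusted p = 0.987). Its near-copy Eno1b had a log2 change of -0.50 (SE 0.32, adjusted p = 0.987). Ldha ran from 158 to 401 CPM (median 242) and from 166 to 293 CPM (median 220), a log2 change of -0.14 (SE 0.23, adjusted p = 0.991). Control mouse 1 had the highest level of all 10 genes in its group, and without it the change of Ldha was 0.016, that of Gpi1 0.14, that of Pfkp 0.066 and that of Tpi1 0.12.

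**Figure D2:**
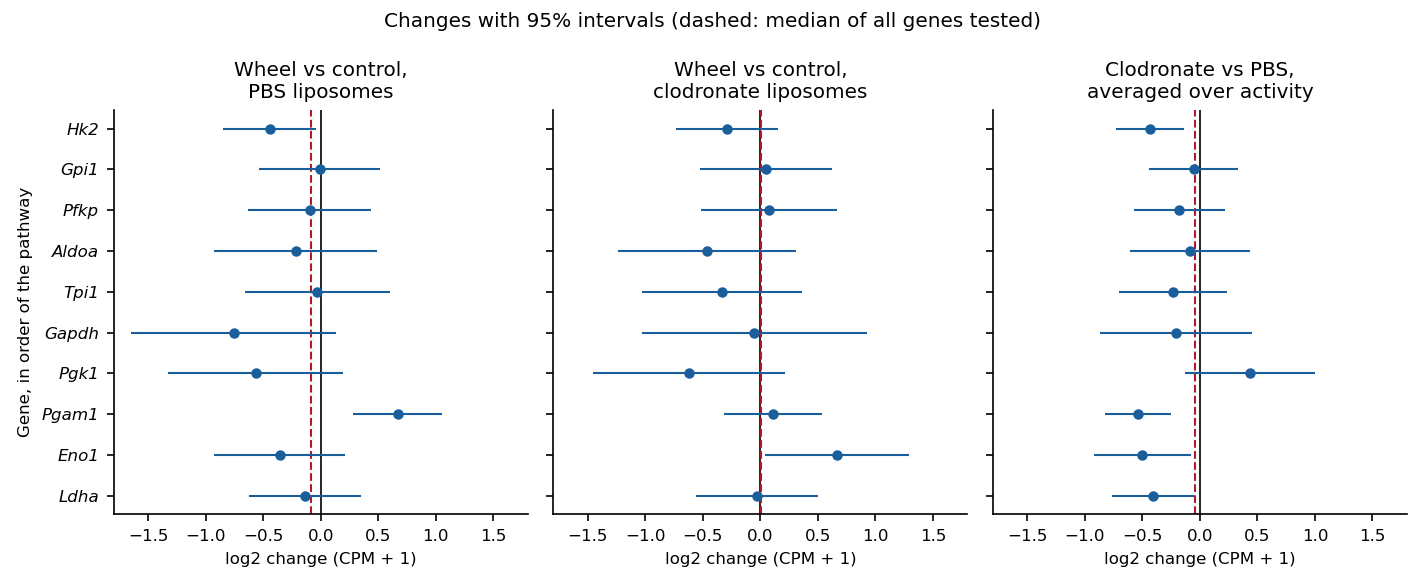
Log2 change of each gene (points) with its 95% interval from limma (lines), in order of the pathway from top to bottom, for 3 comparisons, with a dashed line at the median of all genes tested. The intervals of Hk2 and Pgam1 leave out 0 with PBS liposomes, that of Eno1 does with clodronate liposomes, and those of Hk2, Pgam1, Eno1 and Ldha do for clodronate against PBS, but 0 of the 10 genes passed an adjusted p of 0.05 in any panel.

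With clodronate liposomes 4 of the 10 genes had a higher and 6 a lower mean in runners, where 49.3% of all genes tested were lower. The median change was -0.040, beside 0.0045 over all genes tested. Scaling to assigned reads turned the count to 6 higher and 4 lower. So did leaving out the 2 mice with a muscle score above 9, with a median of 0.13 for the 10 genes. Without the mice with a lymphocyte score above 3 the count was 8 higher and 2 lower, with a median of 0.083, beside -0.042 over all genes. All 12 lymphocyte markers had a higher mean in these runners, with a median log2 change of 2.38 and an unadjusted p under 0.05 for each, though limma called 0 of them. Of the 10 genes 0 were called by limma, where 1 of 15138 genes was (0.00661%). At an unadjusted p under 0.05, which 10.4% of all genes passed, 1 of the 10 was higher, as were 7.04% of all genes. Groups overlapped for all 10 genes, and did not for 1.27% of all genes.

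The gene with the smallest p was Eno1, which releases water to make phosphoenolpyruvate. Control mice had 14.0, 14.0, 10.3, 5.75 and 11.2 CPM of Eno1, and runners had 23.6, 16.1, 14.9, 13.5 and 20.6 CPM. The lowest runner lay below the highest 2 control mice, and the other 4 runners lay above all control mice. The log2 change was 0.66 (SE 0.30, adjusted p = 0.43), whereas that of Eno1b, whose 3′ end is nearly the same, was -0.026 (SE 0.35, adjusted p = 0.993).

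Pgk1 and Hk2 had the next smallest p-values. Control mice had 1.00, 6.95, 3.77, 3.77 and 7.47 CPM of Pgk1 and runners had 7.44, 2.30, 1.00, 1.40 and 1.65 CPM, a log2 change of -0.62 (SE 0.40, adjusted p = 0.647). Control mice had 107, 99.1, 65.2, 76.1 and 92.5 CPM of Hk2 and runners had 88.4, 105, 48.3, 55.1 and 70.5 CPM, a log2 change of -0.29 (SE 0.21, adjusted p = 0.706). The 3 lowest runners for Hk2 were mice 3, 4 and 5, the clodronate-treated mice with a lymphocyte score above 3. Without all 5 mice of the study with such a score, which leaves 2 runners with clodronate liposomes, the change of Hk2 was 0.15 and that of Pgk1 was 0.084. Of the 12 lymphocyte markers 0 were above the floor in all 22 mice, and the part of these cells in the result was not tested.

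Whether the wheel effect differed between the liposomes was tested by the interaction. Of the 10 genes 0 were called by limma, as were 0 of 15138 genes (0%), and 7.58% of all genes had an unadjusted p under 0.05. At that unadjusted p 1 of the 10 had a higher wheel effect with clodronate, as did 6.35% of all genes. This was Eno1, with a difference of 1.02 (SE 0.41, adjusted p = 0.625). Pgam1 had a difference of -0.56 (SE 0.28, adjusted p = 0.667), and Gapdh one of 0.70 (SE 0.64, adjusted p = 0.858). The median of the 10 differences was 0.083 beside 0.091 over all genes. Upper-quartile scaling moved the median of all genes by more than 0.1, to -0.0092, and that of the 10 genes to -0.037.

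Clodronate was compared with PBS liposomes in control mice, in runners and averaged over both. These comparisons share their mice with each other and with those of the wheel. Clodronate targets phagocytes, and 10 of 10 macrophage markers had a lower averaged mean with it, with a median log2 change of -0.25, but limma called 0 of them and 2 had an unadjusted p under 0.05. Markers of other cells moved as well: 10 of 10 adipocyte markers were lower, with a median of -0.41 and 5 of them at an unadjusted p under 0.05, and 12 of 12 muscle markers were higher, with a median of 1.51, and limma called 0 of both lists. The part of fat cells in the results below was not tested. Averaged over activity, 9 of the 10 glycolytic genes were lower with clodronate (8 of 10 with upper-quartile scaling), as were 57.4% of all genes tested. The median of the 10 log2 changes was -0.22, beside -0.042 over all genes tested. Of the 10 genes 0 passed an adjusted p of 0.05 in limma, where 31 of 15138 genes did (0.205%). An unadjusted p under 0.05 was reached by 10.4% of all genes, and 4 of the 10 were lower at that p, as were 8.3% of all genes.

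Those 4 genes were Pgam1, Hk2, Eno1 and Ldha. With clodronate liposomes Pgam1 was at the floor in 4 of 5 control mice and 1 of 5 runners, and the highest of these 10 mice had 1.54 CPM. Its averaged log2 change was -0.54 (SE 0.14, adjusted p = 0.0968), and the adjusted p lay between 0.0698 and 0.324 over the alternatives run. Hk2 had its highest mean in control mice with PBS liposomes (126 CPM) and its lowest in runners with clodronate liposomes (73.5 ± 23.5 CPM, SD, n = 5), with 88.0 ± 17.1 CPM in control mice with clodronate liposomes. Its averaged log2 change was -0.43 (SE 0.14, adjusted p = 0.241), and the adjusted p lay between 0.144 and 0.680. Eno1 was at -0.50 (SE 0.20, adjusted p = 0.369).

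Ldha, which regenerates NAD from NADH, was at -0.41 (SE 0.17, adjusted p = 0.399), with 171, 321, 172, 107 and 138 CPM in the control mice and 187, 203, 125, 146 and 182 CPM in the runners with clodronate liposomes. The highest of these, control mouse 2, was 1 of the 2 mice with a muscle score above 9. Pgk1 was the 1 gene of the 10 with a higher mean, a log2 change of 0.44 with a 95% interval from -0.13 to 1.00. The other 5 had intervals that include 0, among them Gpi1 at -0.055 with a 95% interval from -0.44 to 0.33.

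Within control mice, 8 of the 10 genes were lower with clodronate (6 of 10 with upper-quartile scaling), as were 65.4% of all genes tested. The median of the 10 log2 changes was -0.26, beside -0.10 over all genes tested. Of the 10 genes 0 were called by limma, as were 0 of 15138 genes (0%), while 6.99% had an unadjusted p under 0.05. At that unadjusted p 2 of the 10 were lower, as were 6.08% of all genes. Groups did not overlap for 0 of the 10 and for 0.634% of all genes. Eno1 had the smallest p. Of the 6 control mice with PBS liposomes, 5 had 18.1 CPM or more and 1 had 13.3 CPM, and the highest control mice with clodronate liposomes had 14.0 CPM. The log2 change of Eno1 was -1.01 (SE 0.29, adjusted p = 0.427), and that of Eno1b was -0.58 (SE 0.34, adjusted p = 0.755). Hk2 was at -0.51 (SE 0.20, adjusted p = 0.652) and Ldha at -0.46 (SE 0.25, adjusted p = 0.732).

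Within runners, 7 of the 10 genes were lower with clodronate, as were 49.9% of all genes tested. Of the 10 genes 0 were called by limma, where 1 of 15138 was (0.00661%) and 11.6% had an unadjusted p under 0.05. At that unadjusted p 1 of the 10 was lower, as were 5.54% of all genes. Without the mice with a lymphocyte score above 3, the direction of the group turned. Then 3 of the 10 genes were lower and 7 higher, and the median change went from -0.15 to 0.090. That leaves only runners 1 and 2 with clodronate liposomes, and runner 2 had a muscle score of 9.71. With the lymphocyte score as a covariate and all mice kept, 1 of the 10 genes turned sign. The part of lymphocytes was not tested. The gene at that unadjusted p was Pgam1, whose groups did not overlap, and neither did those of 1.26% of all genes. Runners with PBS liposomes had 1.65 CPM or more, and those with clodronate liposomes had 1.03, 1.00, 1.22, 1.21 and 1.54 CPM. The log2 change was -0.82 (SE 0.20, adjusted p = 0.154). Hk2 was at -0.36 (SE 0.20, adjusted p = 0.527), and at 0.13 without the mice with a lymphocyte score above 3. Ldha was at -0.35 (SE 0.25, adjusted p = 0.629), and Eno1, which led among control mice, was at 0.0084 with a 95% interval from -0.59 to 0.61.

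The 2 mice rich in muscle RNA weighed on these averages. Pfkm, the muscle phosphofructokinase, had 352 CPM in control mouse 2 and 146 CPM in runner 2 of the clodronate groups, and 5.59 to 44.9 CPM in the other 20 mice. Pgam2, the muscle mutase, had 212 and 80.9 CPM there, and 1.00 to 32.0 CPM elsewhere. Eno3, beta-enolase of muscle, had 764 and 270 CPM there, and 2.44 to 92.7 CPM elsewhere. All 3 muscle isozymes thus had their highest 2 values in the same mice. These mice also held the highest Aldoa values of the study, 3191 and 1549 CPM, while their Pgam1 was at the floor and their Eno1 was 14.0 and 16.1 CPM. Aldoa made up 78.9% of the summed CPM of the 10 genes in that control mouse and 72.3% in that runner, against 52.2% to 69.8% in the other mice.

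**Figure D3:**
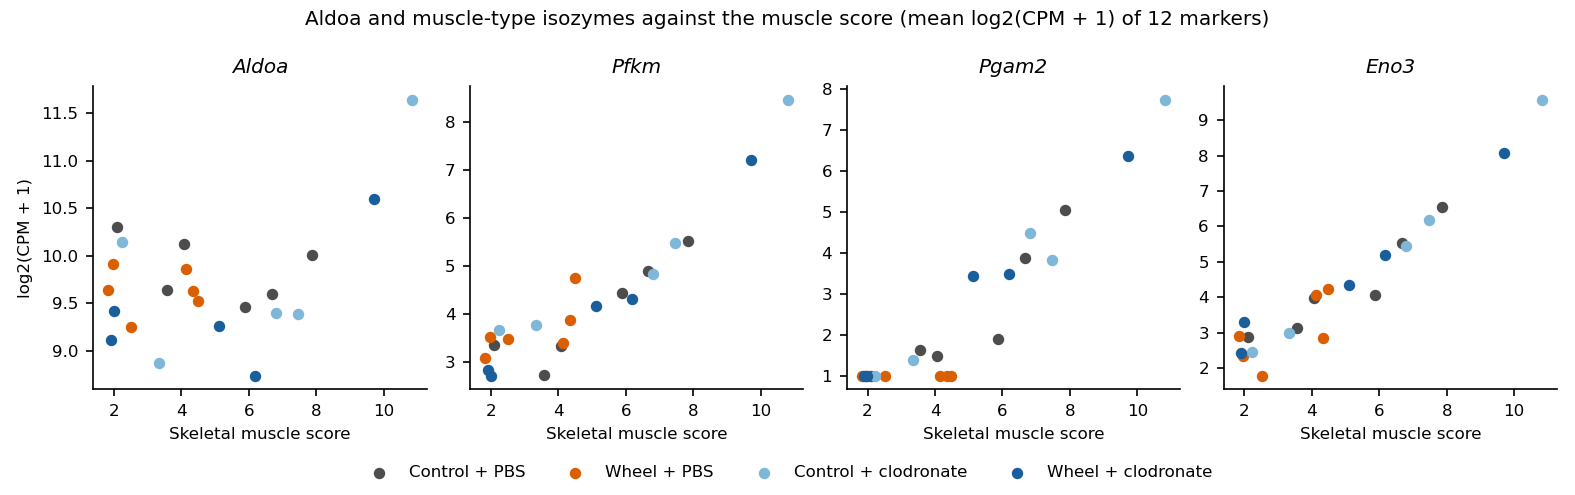
Level of Aldoa and of the muscle-type isozymes Pfkm, Pgam2 and Eno3 (vertical axes, log2(CPM + 1)) against the skeletal muscle score of the mouse (horizontal axes), 1 point per mouse, coloured by group. All 4 genes have their highest values in the 2 mice with scores of 9.71 and 10.8. Pgam2 is at the floor in 10 of the 22 mice, and no relation of the isozymes to the score was computed.

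Without these 2 mice, the averaged log2 change of Aldoa with clodronate moved from -0.087 to -0.45 (adjusted p = 0.295) and that of Tpi1 from -0.23 to -0.51 (adjusted p = 0.311). Gapdh moved from -0.21 to -0.54, Ldha from -0.41 to -0.56 and Hk2 from -0.43 to -0.53. The median of the 10 changes was then -0.51 beside -0.037 over all genes tested, with 9 of 10 lower and 0 called by limma. This exclusion was chosen after the values were seen. Across all 22 mice Aldoa and the muscle score had a Pearson r of 0.43 (permutation p adjusted over 60 relations 0.162), which turned to -0.17 without the same 2 mice, so that this relation rests on them. Without the 5 mice with a lymphocyte score above 3, the median of the 10 averaged changes was -0.11 beside -0.092 over all genes.

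Over all 22 mice, the 10 genes varied together from mouse to mouse. On deviations of log2(CPM + 1) from the group means over the 22 mice, all 45 pairs had a Pearson r above 0, with a median of 0.50, and 22 pairs were above 0.5. Ldha was the gene most like the others, with a median r of 0.74 to the other 9, where its median r to all genes tested was -0.039. The highest pair was Tpi1 and Ldha (r = 0.87), followed by Gapdh and Ldha (0.86), Tpi1 and Gapdh (0.78) and Aldoa and Tpi1 (0.77). Pfkp was closest to Gpi1 (0.64) and far from Hk2 (0.047) and Aldoa (0.072), and Pgk1 and Pgam1, both near the floor, had the lowest value (0.038). These values describe points that share a library, its depth and its tissue makeup, and no test was made of them. They were not computed without the mice rich in muscle RNA. Control mouse 2 of the clodronate groups, the richest of these, had the highest Aldoa and Tpi1 of the study.

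**Figure D4:**
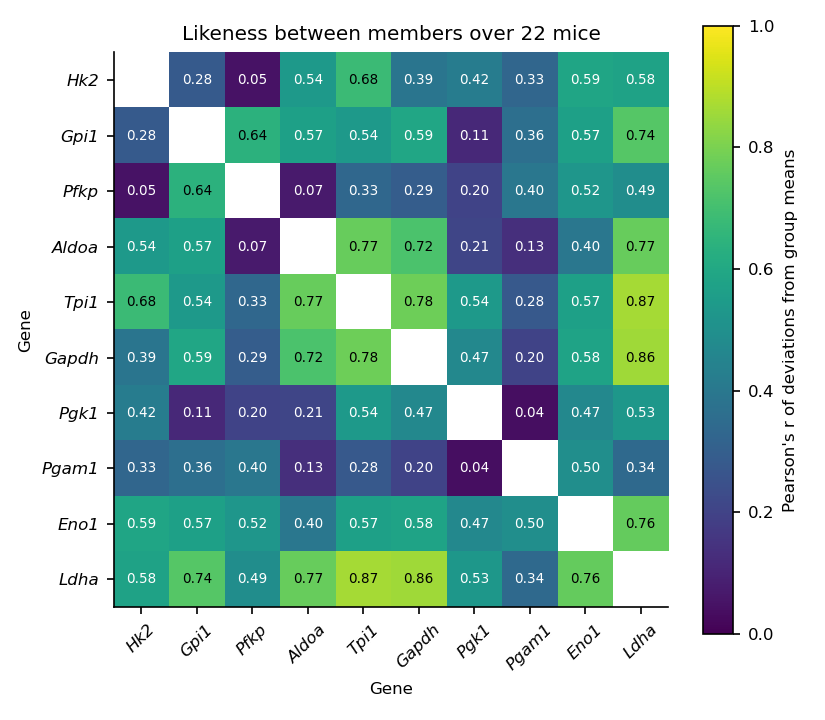
Pearson's r between each pair of the 10 genes over 22 mice, computed on deviations of log2(CPM + 1) from the group means, with colour from 0 to 1. All 45 pairs are above 0, and the 6 pairs among Aldoa, Tpi1, Gapdh and Ldha lie between 0.72 and 0.87.

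By the same measure Ldha, Hk2 and Gpi1 were closest to genes of mitochondrial respiration. The closest of the 15137 other genes to Ldha was Cs, citrate synthase, which starts the citric acid cycle (r = 0.90), before Tpi1 and Gapdh. Hk2 was closest to Atp5b, a subunit of the ATP synthase (0.80), Ndufb6, a subunit of complex I (0.76), and Snx24 (0.75). Gpi1 was closest to Cox7b (0.85), Fam57b (0.83) and Cox5a (0.83), of which Cox7b and Cox5a encode subunits of cytochrome oxidase. Aldoa was not closest to such a gene, but the ATP synthase gene Atp5e (0.88) and the Aldoa retrogene Aldoart1 (0.87) were among its nearest genes. Tpi1 was closest to Ldha, and Rtn4 (0.86) was also among its nearest genes.

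The neighbours of the other enzymes were of mixed kinds, some of them mitochondrial. Pfkp was closest to Kif20b, a mitotic kinesin (0.85), Uck2, a uridine kinase (0.83), and Ncapg, a condensin subunit (0.83). Gapdh was closest to Rtn4 (0.86), its own pseudogene Gm7336 (0.86) and Ldha. Eno1 was closest to Nsdhl, an enzyme of cholesterol synthesis (0.77), Ldha (0.76) and Zfp746 (0.76). Pgk1 was closest to Nup133, a nuclear pore protein (0.77), Atp5j, a further ATP synthase gene (0.74), and Tex2 (0.73). Pgam1 was closest to Mrps22, a mitochondrial ribosomal protein (0.79), Trim71 and Serpina3m (0.75 each), and Trim71 and Serpina3m had a median at the floor.

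Levels were also set against scores of other cell types over the 22 mice, as 60 relations of 10 genes with 6 marker lists. Lymphocyte markers were left out, since the mice fell into separate clusters on that score. In 2 relations both Pearson's r and Spearman's rho passed an adjusted permutation p of 0.05. Pfkp went with the score of 10 dividing-cell markers (r = 0.73, permutation p = 0.00011, adjusted 0.0033). Spearman's rho was 0.75 (permutation p = 8e-05, adjusted 0.0024). Without the 2 mice farthest from the median score r was 0.66, and on deviations from the group means it was 0.73 (permutation p adjusted 0.0114). The dividing-cell score ran from 1.39 to 4.48 and overlapped between all 4 groups.

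Aldoa went with the score of 7 brown fat markers (r = 0.78, permutation p = 1e-05, the smallest that 100000 permutations give, adjusted 0.0006). Spearman's rho was 0.76 (permutation p = 4e-05, adjusted 0.0024). Without the 2 farthest mice r was 0.73, and on deviations from the group means it was 0.76 (permutation p adjusted 0.0114). The single markers differed in their r with Aldoa. Ucp1, the uncoupling protein, was at or near the floor (median 1.00 CPM, highest 8.16 CPM) and had an r of 0.30 with Aldoa, and Cidea had one of 0.22. Cox7a1 (0.78) and Cox8b (0.76), cytochrome oxidase subunits that muscle also uses, had the highest. Dio2 had an r of 0.50, Ppargc1a one of 0.44 and Elovl3 one of 0.21, and the cells behind this relation were not tested.

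Of the other relations, Gpi1 with the brown fat score passed for r (0.63, permutation p adjusted 0.0338) but not for rho (0.60, permutation p adjusted 0.0762). For Gpi1 the single brown fat markers with the highest r were Ucp1 (0.55) and Cidea (0.49), and the lowest was Elovl3 (0.18). With the skeletal muscle, adipocyte, macrophage and epithelial scores, 0 of 40 relations passed after adjustment, and r ran from -0.53, for Eno1 with the epithelial score, to 0.48.

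**Figure D5:**
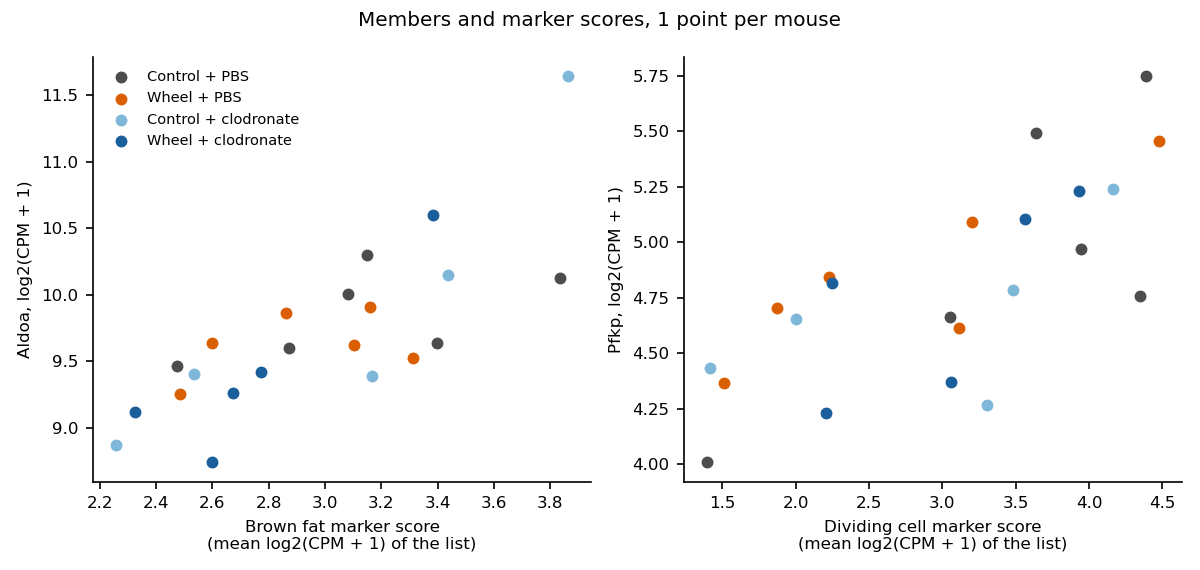
Aldoa against the brown fat score (left) and Pfkp against the dividing-cell score (right), both axes as log2(CPM + 1) with the score as the mean over its list, 1 point per mouse, coloured by group. Over the 22 mice both genes are higher where the score is higher, with r of 0.78 and 0.73.

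The rest of the pathway was followed through 20 other isozymes and enzymes, 7 transporters of glucose and lactate, and 14 genes that control glycolysis. Of the 20, 13 passed the filter, and 0 of these were called by limma in any comparison. With PBS liposomes 9 of the 13 were lower in runners (69.2%), beside 63.8% of all genes tested. Their median log2 change was -0.20, beside -0.085 over all genes tested. At an unadjusted p under 0.05 in limma 1 was higher, as were 0.799% of all genes. The smallest p-values were those of Ldhd, the D-lactate dehydrogenase, at 0.54 (SE 0.25, adjusted p = 0.987), Ldhb, the heart-type subunit, at -0.55 (SE 0.31, adjusted p = 0.987), Eno1b, and Pgam2 at -1.48 (SE 0.96, adjusted p = 0.987). Pkm, the pyruvate kinase of most tissues, had a median of 158 CPM (90.7 to 403), and was highest in the control mouse rich in muscle RNA. Pklr, Pgk2, Ldhc and Hkdc1, isozymes best known from other tissues, were listed at the floor in all 22 mice.

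All 7 transporter genes passed the filter and 0 were called by limma in any comparison. With PBS liposomes 5 of 7 were lower in runners (71.4%), beside 63.8% of all genes tested. The smallest p was that of Slc2a3, a high-affinity glucose transporter of neurons and white blood cells. It ran from 2.19 to 6.41 CPM in control mice and from the floor to 4.02 CPM in runners with PBS liposomes, a log2 change of -0.95 (SE 0.29, adjusted p = 0.961). With clodronate liposomes control mice had 4.10, 3.05, 1.53, 5.69 and 2.04 CPM and runners had 4.75, 5.18, 7.53, 5.77 and 10.2 CPM, a log2 change of 0.89 (SE 0.31, adjusted p = 0.281). The changes thus had opposite signs, and their difference was 1.84 (SE 0.42, adjusted p = 0.459), which did not pass after adjustment. The highest 3 of these runners were the mice with a lymphocyte score above 3, whose part was not tested. Slc2a4, the insulin-responsive transporter of fat and muscle, had an averaged log2 change with clodronate of -0.51 (SE 0.16, adjusted p = 0.194).

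Of the 14 control genes 13 passed the filter, with 0 called by limma in any comparison. With PBS liposomes 7 of 13 were lower in runners (53.8%), beside 63.8% of all genes tested. Txnip, an inhibitor of glucose uptake, had a log2 change of 0.73 (SE 0.29, adjusted p = 0.987), and Tigar, which lowers the activator of phosphofructokinase, one of -0.83 (SE 0.43, adjusted p = 0.987). Averaged over activity, the log2 change with clodronate was -0.25 (SE 0.11, adjusted p = 0.414) for Hif1a, the oxygen-regulated subunit of HIF-1, and 0.76 (SE 0.33, adjusted p = 0.414) for Fbp2, the muscle bisphosphatase, which was above the floor in 8 mice. Pfkfb3, which makes the activator of phosphofructokinase, was at -0.35 (SE 0.18, adjusted p = 0.516).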

How the data were processed

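Mammary tissue RNA of 22 mice was analysed, with groups from the labels. For each mouse the authors deposited a signal in CPM after mapping (STAR 2.5.3a and GRCm38 in the submitters' processing notes; the counting program is not given in the sources used here), and raised values below 1 to 1. Above that floor 100% of values lay within 0.05 of a whole read. Values at the floor did not, so no count test was used. The total includes unmapped reads, and 57.4% to 64.6% of reads were assigned to genes. Aldoa was listed in 2 rows and the row with the higher mean was kept. The 4 rows that name no gene were left out.

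The filter required a value above the floor in 5 or more mice. Log2(CPM + 1) was fitted with limma 3.58.1 (R 4.3.3, 4 group means, empirical Bayes with trend, Benjamini-Hochberg adjustment over 15138 genes, threshold 0.05), after tests on simulated data. Named were all 10 enzymes, with full statistics for the 3 with the smallest p in each comparison other than the wheel with PBS liposomes, up to 4 genes of each other list by p, and the 3 genes most like each enzyme. Some genes that these rules select are not reported here. Relations used 100000 two-sided permutations (Python 3.11.15, numpy 2.4.6), adjusted over 60 relations. Copies were sought with blastn 2.17.0. The members and lists were chosen with earlier results of these data known. The labels give separate mice as replicates. Alternatives were other pseudocounts (0.1, 5 or none), filters, scalings, samples, covariates and a replicate block.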

Additional observations from a re-analysis of the deposited data

Results flagged for a closer look

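In 63 sets of values (a gene or score in 1 group), 3 had a highest mouse far from the others by Dixon's criterion at 95%, where chance gives about 1 in 20, or 3.15. Tpi1 in control mouse 2 with clodronate liposomes was at 7.77 on the log2(CPM + 1) scale, with the nearest of the 5 at 6.37; this mouse also had the highest skeletal muscle score of the study (10.8). Pgk1 in wheel-running mouse 4 with PBS liposomes was at 2.25, with the nearest of the 6 at 1.24 and 3 mice at the floor. Pgam1 in control mouse 1 with clodronate liposomes was at 1.12, and the other 4 mice were at the floor, so the gap is that between a level just above the floor and the floor itself.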

How the results depend on the processing

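No glycolytic gene was called in any comparison under any alternative. Of the 60 changes of the 10 genes in 6 comparisons, 31 had both signs over all alternatives and left-out mice, and 21 of the 60 turned sign without the mice with a lymphocyte score above 3. With the lymphocyte score as a covariate and all mice kept, 8 of the 60 turned sign. The 25 changes that the text gives by rule, all 10 genes for the wheel with PBS liposomes and 3 for each other comparison, were followed singly. Of their 338 values under the alternatives, 328 kept their direction and their side of the threshold and 10 reversed. The reversed log2 changes of the wheel with PBS liposomes were Gpi1 at 0.0909 with upper-quartile scaling, 0.0229 with scaling to assigned reads and 0.0335 without the mice with a lymphocyte score above 3, Pfkp at 0.000134 with upper-quartile scaling, and Tpi1 at 0.0694 and 0.00132 with these scalings and 0.155 with the muscle score as a covariate. Of these 25, without the lymphocyte-rich mice, the wheel with clodronate liposomes gave 0.0845 for Pgk1 and 0.153 for Hk2, and clodronate in wheel-running mice gave 0.133 for Hk2. Leaving out 1 mouse reversed 16 of 550, with ranges of -0.236 to 0.141 for Gpi1, -0.282 to 0.0655 for Pfkp, -0.202 to 0.124 for Tpi1 and -0.251 to 0.0163 for Ldha. At each of these 4 highest values the mouse left out was control mouse 1 with PBS liposomes.

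Counts of called genes over all 15138 moved more, and the cause was not tested. For the wheel with clodronate liposomes the count was 1, and it was 3 with no filter, 0 with a mean of at least 5 CPM (which drops Pgk1 and Pgam1), 0 with only the groups compared, 0 with either marker score as a covariate, 12 without the lymphocyte-rich mice and 6 without the 2 muscle-rich mice, an exclusion chosen after seeing the data. Leaving out 1 mouse gave 0 to 236, with 236 without wheel-running mouse 2, 118 without wheel-running mouse 1, and 0 without control mice 1, 2, 3 or 4 or wheel-running mouse 5. For clodronate in wheel-running mice it was 1, and it was 3 with a pseudocount of 5, 4 with no filter, 0 with a mean of at least 5 CPM, 3 and 2 with the scalings, 2 with no variance trend, 0 with only the groups compared, 0 with the lymphocyte covariate, 14 and 40 without those mice, and 0 to 51 leaving out 1 mouse (51 and 28 without clodronate-treated wheel-running mice 2 and 1). Averaged over activity it was 31, and it was 54 with a mean of at least 5 CPM, 12 and 16 with the scalings, 20 with no variance trend, 16 with the muscle covariate, 0 and 0 without those mice, and 9 to 146 leaving out 1 mouse (146 without control mouse 1 and 9 without control mouse 3 with clodronate liposomes). For clodronate in control mice it was 0, and 38 without that control mouse 1, in a range of 0 to 38. For the interaction it was 0, and 2 with no filter. The median change of the 10 genes moved by less than 0.465 under all alternatives. That value is the pooled SD within groups of the median level of the 10 genes in a single mouse. It is larger than each median change of the main fit, so staying below it does not show stability. The averaged median with clodronate moved from -0.22 to -0.51 without the muscle-rich mice, and that within runners from -0.15 to 0.090 without the lymphocyte-rich mice.

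Same-numbered mice are separate animals by the labels. Between control mice and runners their deviations had a mean correlation of -0.0751 with PBS and 0.181 with clodronate liposomes. In these pairs 0 of 6 and 2 of 5 correlated best with their own number. Between the liposomes the mean was 0.0963 in control mice and 0.132 in runners, with 1 of 5 and 2 of 5 best with their own number. So few pairs cannot show whether mice of a number share a batch, which was not tested. With the replicate block the counts were 0 for the wheel with clodronate liposomes, 0 for clodronate in wheel-running mice and 11 averaged over activity. The floor of 1 CPM in the deposited values limits Pgk1 and Pgam1, which were at it in 6 and 8 mice. Their SEs leave out the spread below the floor. A fit of only the groups compared was not made for the average and the interaction, which use all groups.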
